A study of Coprinopsis cinerea with 29 samples.

Results

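The subject is a set of 98 gene models of the mushroom Coprinopsis cinerea whose transcripts were low in both parts of the fruiting body and higher in every earlier group. They were found among the 12003 gene models of the deposited expression table, 0.816% of it. For each library the level was taken as log2(RPKM + 1), where RPKM is the number of reads scaled to the length of the gene model and to the size of the library, and a median was formed per group. A gene model was a member where the higher of its 2 medians in fruiting bodies lay at least 1.5 below the lowest median of the 7 earlier groups, and those 2 medians differed by less than 1.5. The members were thus chosen by their levels in fruiting bodies relative to the earlier groups. Those levels are given here as a description, without a test.

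Polyadenylated RNA of 29 samples was sequenced. Mature fruiting bodies gave 2 groups, the cap together with its lamellae (FB_CL, n = 3) and the stipe (FB_S, n = 3). The 7 earlier groups were vegetative mycelium (VM, n = 3), secondary hyphal knots (H, n = 3), stage 1 primordia (P1, n = 4), stage 2 primordia (P2, n = 4) and the cap (YFB_C), lamellae (YFB_L) and stipe (YFB_S) of young fruiting bodies (n = 3 each). All samples came from strain 326, with the genotype A43mut B43mut pab 1-1. Its mutated mating-type factors let it fruit without a mate, so no group is an ordinary dikaryon. Colonies spent 5 days on agar in darkness at 37 °C. Fruiting then took place at 25 °C in a daily cycle of 12 h light and 12 h dark. The primordia were not divided into tissues. The labels name no cultures behind the replicates, so the tests measure only the spread between these samples, which may be technical.

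A young fruiting body of this fungus already has its cap, gills and stipe laid out. During maturation the stipe lengthens quickly, the cap opens, spores ripen on the gills, and the cap then digests itself. Vegetative mycelium, by contrast, feeds and spreads through the medium. Because RNA was taken from whole tissue pieces, fewer cells of a type and less of a transcript per cell cannot be told apart.

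The identifiers are numbers of genome-project gene models. The files give neither names nor products nor positions for them, and 0 of 14242 matched the RefSeq table of another strain, which lists 13657 genes. No function is therefore stated for any member, and single gene models are named by number only where a rule or a count singled them out. Their median length was 1297 bases (range 261 to 4346), against 1315 bases over the table. In 97 of 98 members at least 99% of the reads were placed on that gene model alone. The exception was 376641, at 97.4%, which was singled out after its values were seen.

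Libraries held 10736371 to 32199674 counted reads. Replicate 4 of H, P1 and P2 was on a second flow cell, and all other libraries were on the first. Comparisons of these groups with mycelium or with young tissues are therefore not balanced for flow cell. The TMM scaling factors, which set the level of each library, ran from 0.436 to 0.504 in FB_CL, from 0.610 to 0.652 in FB_S and from 0.564 to 1.52 in the earlier groups. With library size alone as the scaling, the same rule gives 411 gene models, 95 of the 98 among them. Membership thus depends on the scaling. Within the young tissues 3 libraries held lower levels of the members than their group: YFB_C replicate 3, YFB_L replicate 1 and YFB_S replicate 2. Several counts that moved without them are given both ways, but not all. These libraries are set apart by their low member levels, so leaving them out favours higher member levels in young tissues.

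The median member stood at 1.96 RPKM in FB_CL and 2.19 RPKM in FB_S. In the earlier groups it stood at 23.8 RPKM in VM, 23.4 in H, 27.8 in P1, 26.5 in P2, 23.4 in YFB_C, 32.0 in YFB_L and 24.6 in YFB_S. Over all gene models of the table the median changed little, at 13.9 RPKM in FB_CL and 12.5 RPKM in FB_S against 13.8 to 16.3 RPKM in the earlier groups. TMM scaling takes the typical gene model as unchanged, so this level median is largely set by the scaling. All 98 members together took 0.0220% ± 0.00208 of the reads in FB_CL and 0.0329% ± 0.00229 in FB_S (SD, n = 3 each). Their share was 1.16% ± 0.289 in VM and 1.37% ± 0.167 in H (SD, n = 3 each), and 1.67% ± 0.144 in P1 and 1.66% ± 0.220 in P2 (SD, n = 4 each). It was 0.730% ± 0.427 in YFB_C, 0.923% ± 0.267 in YFB_L and 0.825% ± 0.284 in YFB_S (SD, n = 3 each). These are shares of counted reads, without TMM scaling, and abundant members weigh most in them. Leaving out gene model 457112 moved the share from 1.94% to 1.36% in P2 replicate 2. In P1 replicate 1 it moved from 1.53% to 1.12%, while in VM replicate 1 it was 1.34% with and without that gene model.

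**Figure D1:**
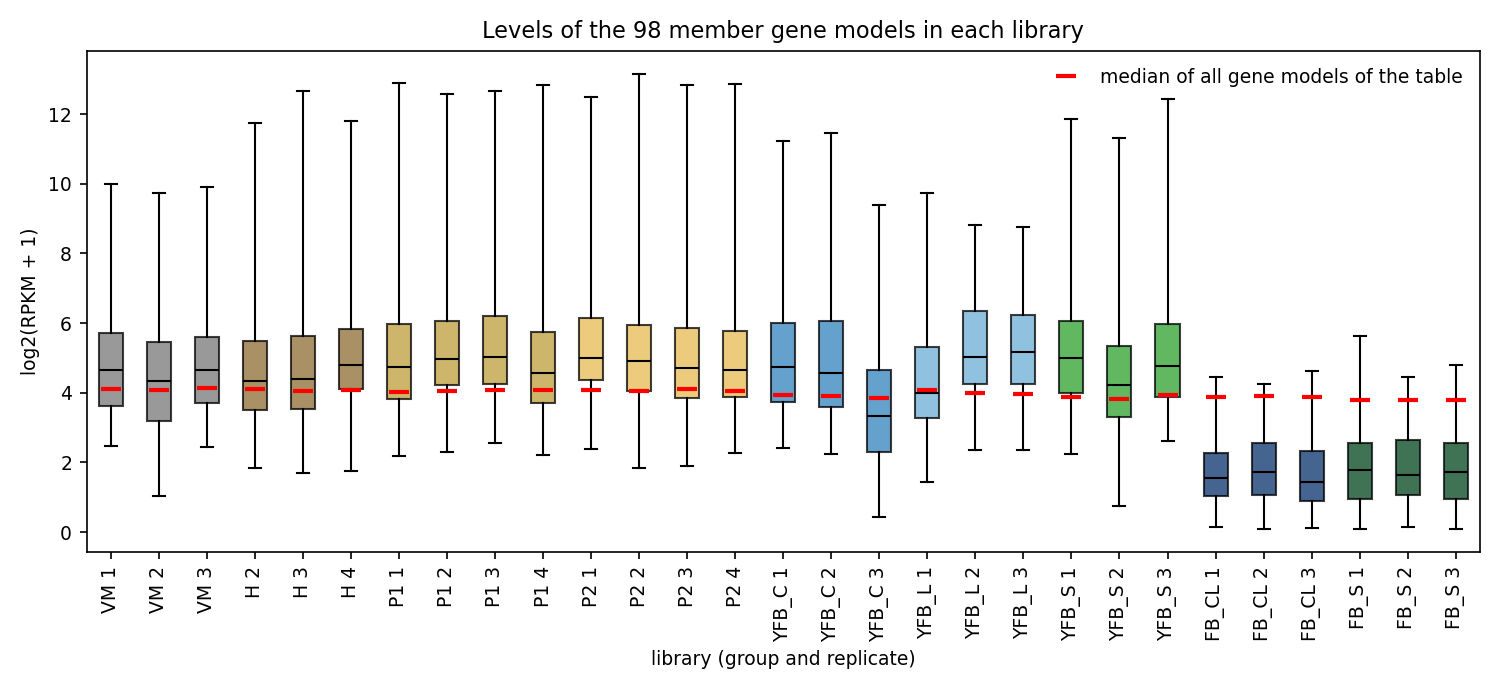
Level of the 98 members in each library as log2(RPKM + 1), in order of development. Boxes span the quartiles, the line is the median, whiskers reach the lowest and highest member, and the red mark is the median of all 12003 gene models. The 6 mature libraries on the right have member medians of 1.70 to 2.47 RPKM, below the red mark, and YFB_C replicate 3, at 8.99 RPKM, lies below the other cap libraries.

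"Shut off" describes only part of the set. Both mature medians were under 1 RPKM in 16 members. The higher of them was 1 to 10 RPKM in 70 members and at least 10 RPKM in 12. No member was without reads in all 6 mature libraries. The fewest reads summed over those libraries were 4, the median was 201, and 39 members had fewer than 10 reads in at least 1 of them, so their mature levels are imprecise. In 75 of 98 members every mature library lay below every one of the 23 earlier libraries, which was so for 3.26% of all gene models in the table. Since the choice of members used this difference, nothing is read from that share. The stipe median was the higher of the mature parts in 57 members and the cap median in 41. The rule bounds the difference between these medians and no share over the table is set beside the counts, so nothing is read from them.

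The distance between the lowest earlier median and the higher mature median ran up to 3.64 on the log2(RPKM + 1) scale, with a median of 1.84, and was at least 2 in 36 members. Gene model 369216 had the largest distance. It was at 3.54, 9.86 and 3.67 RPKM in the FB_CL libraries and 3.72, 2.49 and 3.85 RPKM in the FB_S libraries. Its lowest earlier library was P2 replicate 2, at 40.1 RPKM, and its highest was YFB_L replicate 1, at 699.8 RPKM. The mature libraries did not overlap with the others.

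Next came 472256, a short gene model of 261 bases, at a distance of 3.57. It had 3, 0 and 0 reads in the FB_CL libraries and 2, 3 and 1 reads in the FB_S libraries. Its earlier levels ran from 7.16 RPKM in YFB_L replicate 1 to 173 RPKM in YFB_S replicate 1. This member was close to absent from mature tissue, whereas the next 3 were reduced but remained well measured there.

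Gene model 13357, one of the 2 with the highest floor before maturity, was at 17.8, 14.3 and 23.6 RPKM in FB_CL and 11.6, 14.6 and 9.75 RPKM in FB_S. Its earlier group medians lay between 156 RPKM in YFB_S and 364 RPKM in YFB_C. Gene model 380252 was the other, and also kept the highest level after maturity. It was at 12.4, 11.6 and 23.5 RPKM in FB_CL and 48.7, 12.9 and 23.7 RPKM in FB_S, and its earlier medians ran from 125 RPKM in VM to 377 RPKM in YFB_S. FB_S replicate 1 of this gene model lay above VM replicate 2, at 46.6 RPKM, so the libraries overlapped although the medians were far apart. Gene model 485178 followed with 12.4, 13.7 and 9.02 RPKM in FB_CL and 23.1, 20.8 and 18.6 RPKM in FB_S. Its earlier medians lay between 61.3 RPKM in YFB_L and 459.5 RPKM in VM.

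At the edge of the rule the member just inside was 499110, with a distance of 1.505, and the gene model just outside was 227985, with 1.497. Medians of 499110 were 0.51 RPKM in FB_CL and 0.553 RPKM in FB_S, against at least 3.41 RPKM in the earlier groups. Those of 227985 were 6.56 RPKM in FB_CL and 7.04 RPKM in FB_S, against at least 21.7 RPKM.

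**Figure D2:**
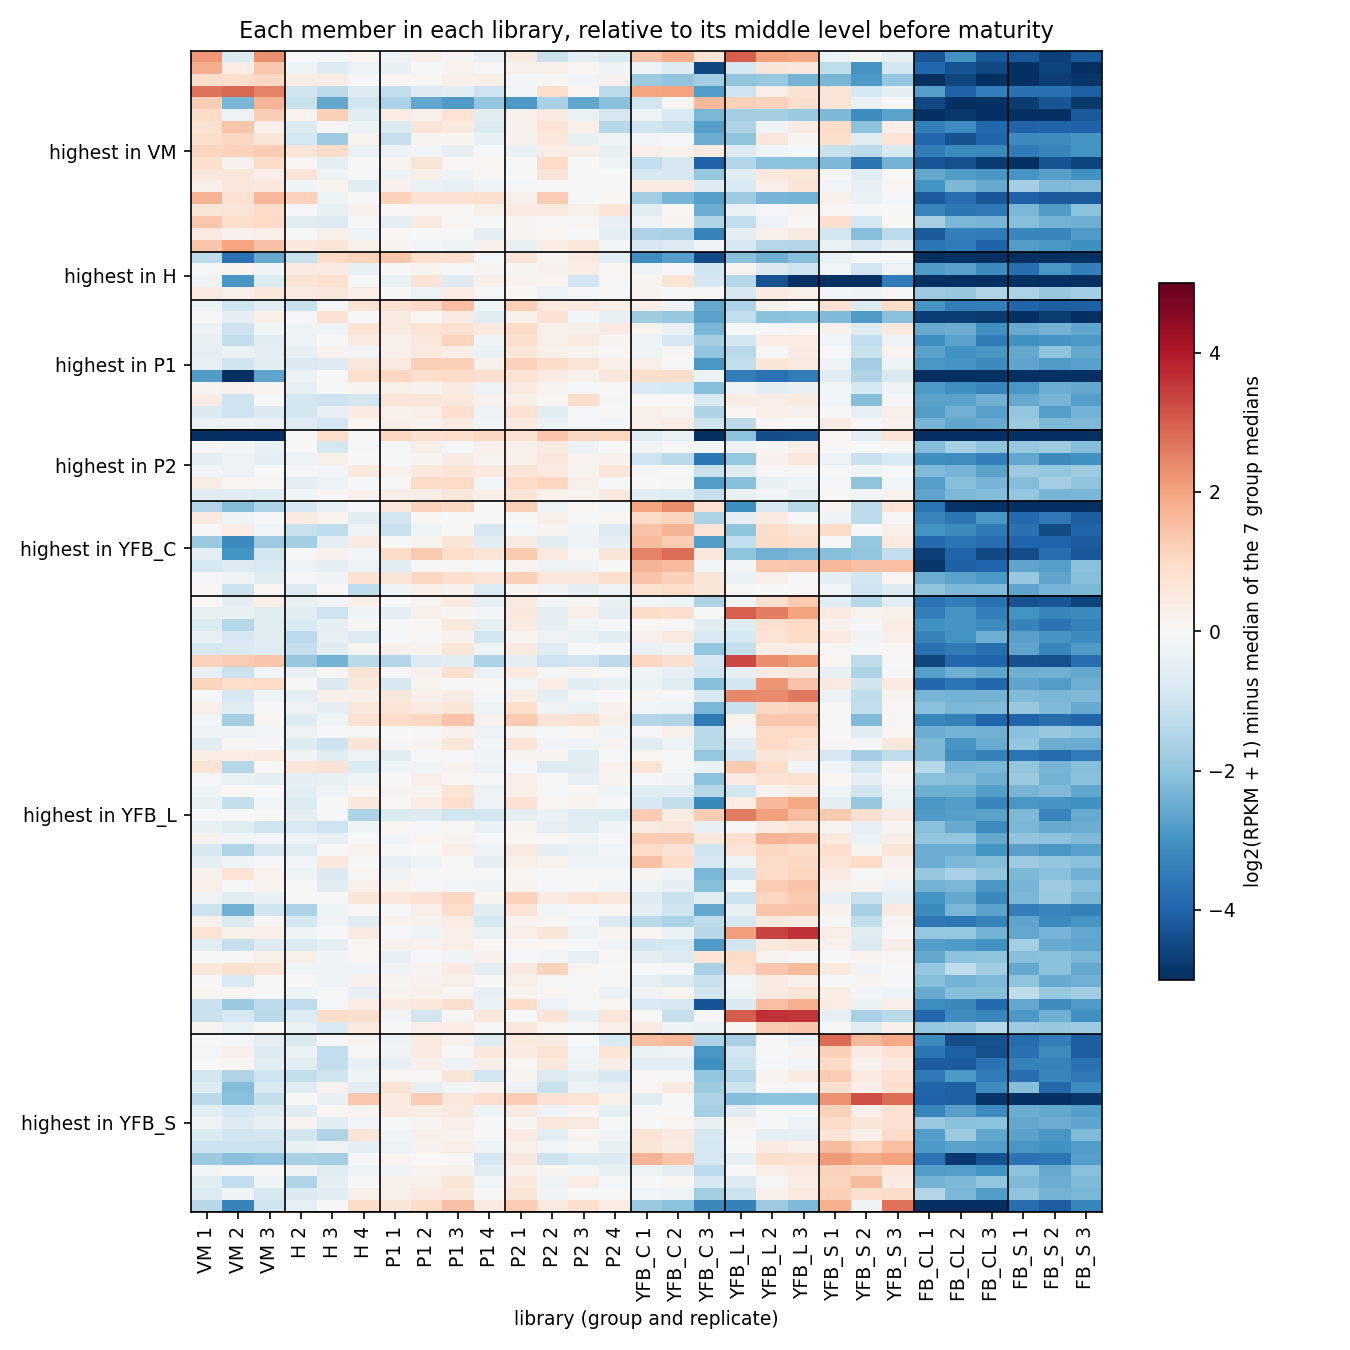
Level of each member (rows) in each library (columns) as log2(RPKM + 1) minus the median of its 7 earlier group medians. Rows are ordered by the earlier group with the highest median, 37 of them under YFB_L. The mature columns on the right are blue throughout, and YFB_C replicate 3 is the bluest earlier column.

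On the way from young to mature tissue the members differed as follows, again as a description. In cap with lamellae against young cap the median difference was -2.93 on the log2(RPKM + 1) scale, from -1.53 to -9.39, beside a median of 0.00 over the table. Against young lamellae it was -3.27, from -1.85 to -6.84, beside 0.01 over the table. In mature against young stipe it was -2.75, from -1.52 to -10.72, beside 0.01. These medians over the table are largely set by the scaling. A difference of 4-fold or more was found in 76 members against the young cap (7.87% of the table), in 92 against young lamellae (10.1% of the table) and in 85 against the young stipe (8.06% of the table). Without the low library of each young tissue these counts were 81, 92 and 88 (8.25%, 10.6% and 8.05% of the table). The cap and lamellae comparisons share the FB_CL libraries.

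**Figure D3:**
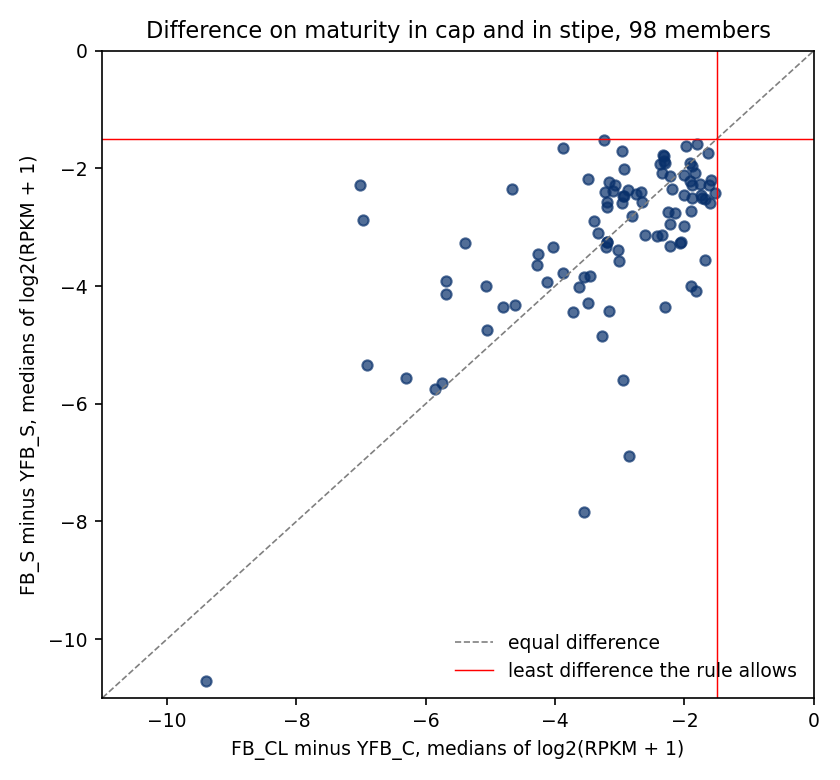
Difference between mature and young medians of log2(RPKM + 1) for each member, in the cap (horizontal axis) and the stipe (vertical axis). The rule keeps every point beyond the red lines at -1.5, and the point at the lower left is 457112, with -9.39 in the cap and -10.72 in the stipe.

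One gene model, 457112, with 420 bases, had the highest median of the set in H, P1, P2, YFB_C and YFB_S, but not in VM or YFB_L. It was at 2.12, 2.58 and 4.69 RPKM in FB_CL and 1.22, 14.8 and 0.665 RPKM in FB_S, from 3 to 64 reads per library. In P1 it was at 7535, 6101, 6475 and 7249 RPKM, and in P2 at 5808, 9177, 7264 and 7522 RPKM. FB_S replicate 2 stood above the other mature libraries. YFB_C replicate 3, at 32.0 RPKM, was far below the other caps, at 2408 and 2796 RPKM.

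The levels in the earlier groups, which the rule bounds from below but does not compare with each other, were tested with edgeR's quasi-likelihood test over 11990 gene models, all 98 members among them. Between 2 groups a call needed 2-fold or more and p under 0.05 after Benjamini-Hochberg adjustment. Among all 7 earlier groups the F test had to pass with at least 4-fold between the highest and lowest group. On that basis 40 of 98 members (40.8%) differed among the earlier groups, against 56.6% of all gene models tested. The floor that the rule sets on every earlier group keeps out gene models that are near 0 in one of them. That bears on the comparisons of 2 groups as well. With no minimum fold 71 members (72.4%) had an adjusted p under 0.05, against 90.5% of all gene models. Member counts for other scalings or with libraries left out mostly stand without the share of all gene models in that setting. Nothing about the members is read from those counts.

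The member with the largest F was 368206 (F = 53.4, edgeR adjusted p = 3.65e-11). It was at 11.6, 18.1 and 13.2 RPKM in FB_CL and 10.2, 16.8 and 15.1 RPKM in FB_S. Its earlier levels came in steps, with 842, 856 and 954 RPKM in VM, 613, 592 and 470.0 RPKM in H, 414 to 565 RPKM in the primordia and 62.6 to 138 RPKM in the 9 libraries of young tissues. The steps from primordia to young tissues and from young to mature tissues were both without overlap. The opposite case was 366260, with the smallest range of earlier medians, 0.27 on the log2(RPKM + 1) scale. It was at 1.43, 2.42 and 1.65 RPKM in FB_CL and 1.89, 2.15 and 1.42 RPKM in FB_S, against 4.86 to 13.6 RPKM in the 23 earlier libraries (edgeR adjusted p = 0.579 among the earlier groups). A p of this size does not show that its earlier levels were equal.

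The group with the highest earlier median was YFB_L for 37 members (37.8%), while 20.0% of all gene models of the table peaked there. P1 was highest for 11 members (11.2%, against 5.14% of the table) and P2 for 6 (6.12%, against 2.42%). VM was highest for 17 (17.3%, against 23.2%), YFB_S for 15 (15.3%, against 21.0%), YFB_C for 8 (8.16%, against 19.3%) and H for 4 (4.08%, against 9.00%). The lowest earlier median was that of YFB_C in 28 members (28.6%, against 20.6% of the table) and of H in 19 (19.4%, against 9.48%). It was that of VM in 23 (23.5%, against 22.0%), YFB_S in 14 (14.3%, against 18.3%), YFB_L in 8 (8.16%, against 19.7%), P1 in 3 (3.06%, against 6.14%) and P2 in 3 (3.06%, against 3.71%). Without the low library of each young tissue 37 members were still highest in YFB_L (37.8%, against 21.0% of the table). VM was then highest for 16 (16.3%, against 23.1%) and P1 for 10 (10.2%, against 4.90%). YFB_C was highest for 10 (10.2%, against 19.4%), H for 6 (6.12%, against 9.43%) and P2 for 4 (4.08%, against 2.22%). The lowest median was that of VM in 28 (28.6%, against 22.1%), YFB_C in 23 (23.5%, against 20.7%) and H in 20 (20.4%, against 9.76%). It was that of YFB_L in 11 (11.2%, against 21.3%), YFB_S in 8 (8.16%, against 16.2%) and P1 in 5 (5.10%, against 6.31%). These shares are a description of group medians.

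**Figure D4:**
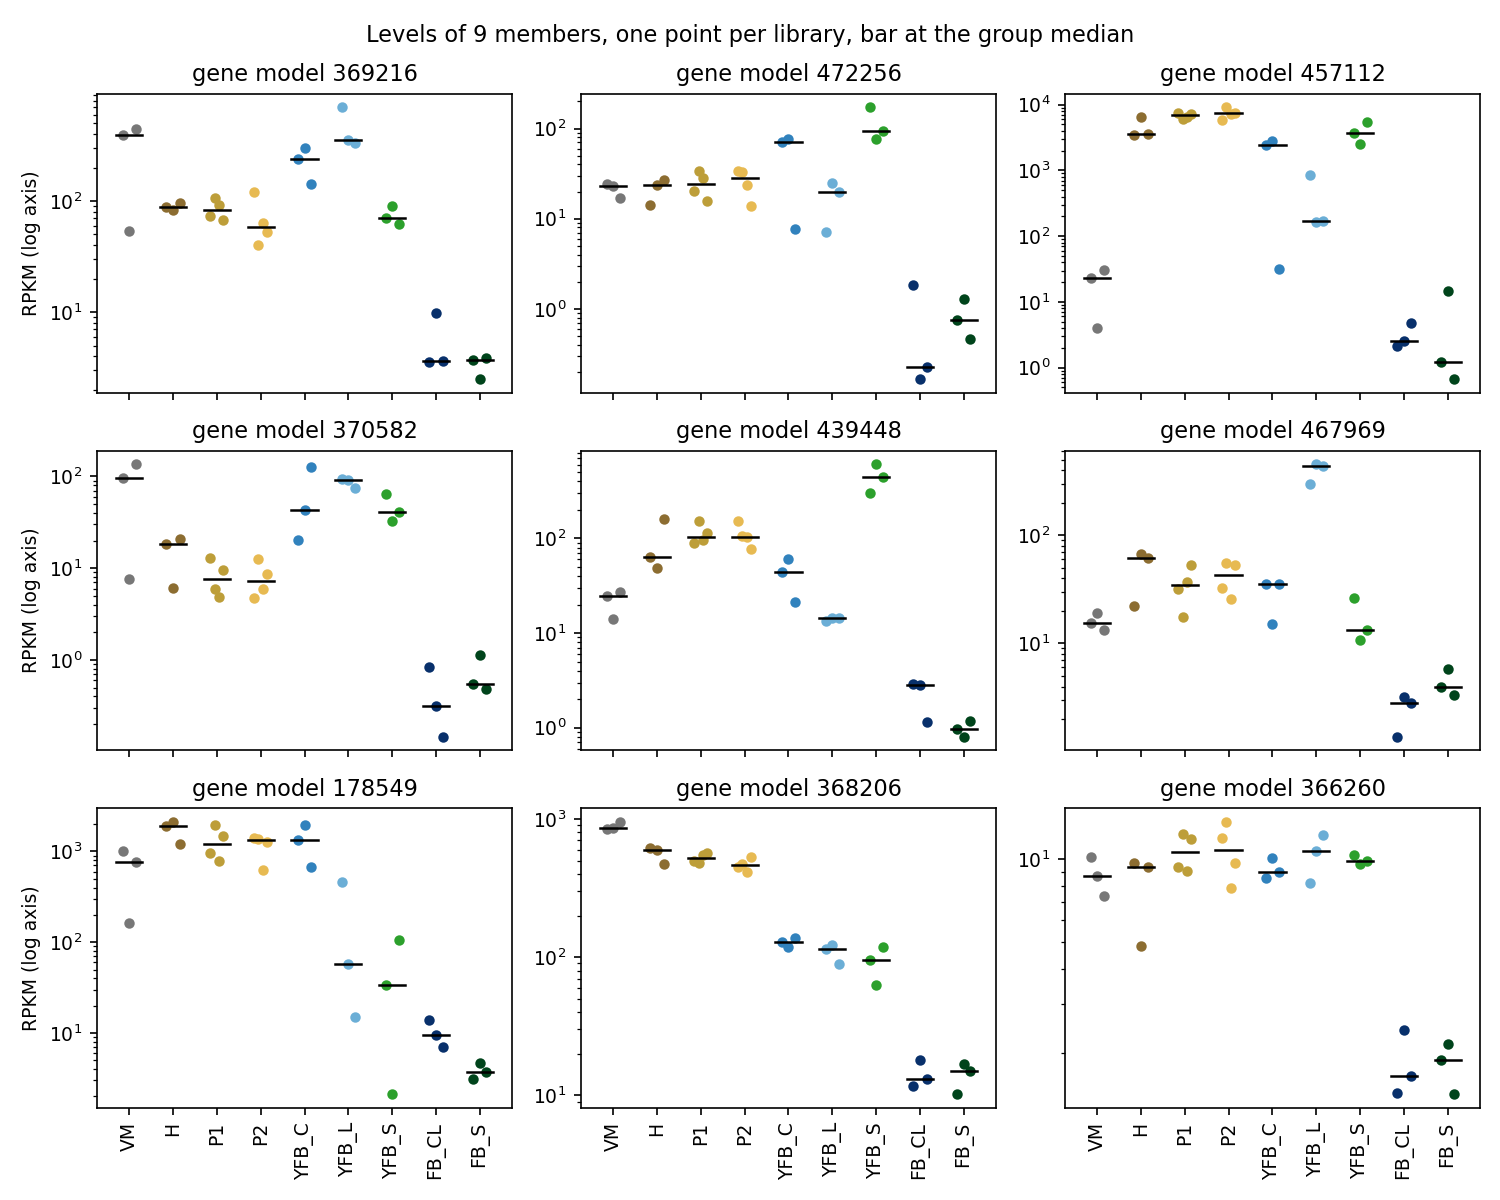
RPKM of 9 members on log axes, with a point per library and a bar at the group median, in order of development. Each panel falls in FB_CL and FB_S on the right. 439448 peaks in YFB_S, with a median of 449.7 RPKM, and 467969 in YFB_L, with 435 RPKM, while 366260 stays between 4.86 and 13.6 RPKM before maturity.

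Around the onset of fruiting, hyphal knots were set against mycelium. Temperature and light may also have differed between these groups and cannot be told apart from the stage. Of the members 6 were higher in H (11.0% of all gene models tested were) and 6 lower (8.98% of all). In either direction 12 of 98 (12.2%) were called, beside 19.9% of all gene models. The median change of the members was 0.02 on the log2 scale and that of all gene models -0.02. Gene model 457112 rose most. It was at 3444, 6523 and 3535 RPKM in H, against 22.9, 3.97 and 30.6 RPKM in VM (log2 change 7.88 ± 1.29 SE; edgeR adjusted p = 9.75e-05). The largest fall was that of 483879, to 12.0, 9.22 and 15.3 RPKM in H, against 168, 186 and 144 RPKM in VM (log2 change -3.77 ± 0.79 SE; edgeR adjusted p = 0.00121). As the naming rule requires, neither pair of groups overlapped. Without YFB_C replicate 3 and YFB_L replicate 1, which are in neither group but in the same fit, 20 members (20.4%) were called, 12 higher and 8 lower, beside 23.9% of all gene models.

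From hyphal knots to stage 1 primordia 1 member was higher (1.01% of all gene models were) and 0 were lower (4.13% of all were). In either direction 1.02% of members were called, beside 5.14% of all gene models. By DESeq2 the counts were also 1 and 0, and 7 members (7.14%) had an unadjusted p under 0.05 in edgeR, against 20.4% of all gene models. The member was 500002, named after its values were seen. It was at 10.3, 10.2, 9.68 and 7.65 RPKM in P1, against 2.92, 2.58 and 2.93 RPKM in H, without overlap (log2 change 1.76 ± 0.51 SE; edgeR adjusted p = 0.0415). The call was lost without any one of H replicates 2, 3 and 4 or P1 replicates 1, 2 and 3, with adjusted p from 0.0650 to 0.143, with library size alone (0.0622), with limma on log2(RPKM + 0.1) (0.0754), with the flow cell as a covariate (0.0566) and on the first flow cell alone (0.0682). Between stage 2 and stage 1 primordia 0 of 98 members were called (0.0% of all gene models tested). An unadjusted p under 0.05 by edgeR was found in 0 members, against 212 of 11990 gene models. DESeq2 and limma called 0 members, without a share of all gene models beside these counts. Nothing about the members is read from these zeros.

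The young tissues were each set against stage 2 primordia. The comparisons share the P2 libraries, so their results are not independent of each other. In the young cap 10 members were higher (22.0% of all gene models were) and 24 lower (20.7% of all were), and the median change was -0.61 on the log2 scale against 0.00 over all gene models. In all 34.7% of members were called, beside 42.7% of all gene models. The gap between the higher and lower member counts was smaller without YFB_C replicate 3. Without that library 15 members were higher and 16 lower, and without it and YFB_L replicate 1 the counts were 15 and 18, with a median change of -0.31. The split was 1 higher and 60 lower with library size alone as the scaling, under which the median gene model shifts by -0.89.

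The largest rise in the young cap was that of 370582, at 20.3, 42.5 and 126 RPKM in YFB_C against 4.73, 12.6, 5.87 and 8.69 RPKM in P2 (log2 change 2.98 ± 0.66 SE; edgeR adjusted p = 0.000582). YFB_C replicate 3 was the highest cap here, unlike in most members, and the change was 1.97 without it. The largest fall was that of 445419, to 18.5, 23.7 and 6.38 RPKM in YFB_C, against 249, 181, 235 and 115 RPKM in P2 (log2 change -3.60 ± 0.60 SE; edgeR adjusted p = 2.99e-05). It was at 1.94, 0.217 and 1.69 RPKM in FB_CL, below all of these.

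In young lamellae 12 members were higher than in stage 2 primordia (18.5% of all gene models were) and 15 lower (16.0% of all were). The median change was 0.13 for the members and 0.11 for all gene models. In either direction 27.6% of members were called, beside 34.5% of all gene models. Without YFB_L replicate 1 the member counts were 22 higher and 15 lower, and without P2 replicate 1 they were 15 and 14. Without the low library of each young tissue 24 members were higher and 15 lower, and the share called was 39.8%, beside 35.7% of all gene models. Those libraries were left out because members were low in them, which favours higher calls for members. Nothing about the members is therefore read from that share. Gene model 496658 rose most, to 442, 226 and 195 RPKM in YFB_L, against 31.1, 21.1, 22.6 and 17.5 RPKM in P2 (log2 change 3.64 ± 0.44 SE; edgeR adjusted p = 5.76e-07). The largest fall was that of 457112, which was high in knots and primordia. It fell to 848, 161 and 167 RPKM in YFB_L, against 5808 to 9177 RPKM in P2 (log2 change -4.25 ± 1.07 SE; edgeR adjusted p = 0.00226). This change was -5.50 without YFB_L replicate 1.

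In the young stipe 11 members were higher than in stage 2 primordia (17.8% of all gene models were) and 15 lower (21.1% of all were). The median change was -0.15, against 0.00 over all gene models, and 26.5% of members were called in either direction, beside 38.9% of all gene models. With library size alone 7 were higher and 28 lower (median shift -0.50), and without YFB_S replicate 2 the counts were 10 and 10. Gene model 370582 rose most here too, to 64.2, 32.5 and 40.6 RPKM in YFB_S, against 4.73 to 12.6 RPKM in P2 (log2 change 2.52 ± 0.65 SE; edgeR adjusted p = 0.00256). The largest fall was that of 178549, to 33.9, 2.13 and 105 RPKM in YFB_S, against 1403, 1385, 626 and 1261 RPKM in P2 (log2 change -4.64 ± 1.04 SE; edgeR adjusted p = 0.000787). Leaving out YFB_S replicate 3 moved it to -6.02. YFB_S replicate 2 of this gene model lay below the mature stipe libraries, at 3.11, 4.68 and 3.74 RPKM.

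**Figure D5:**
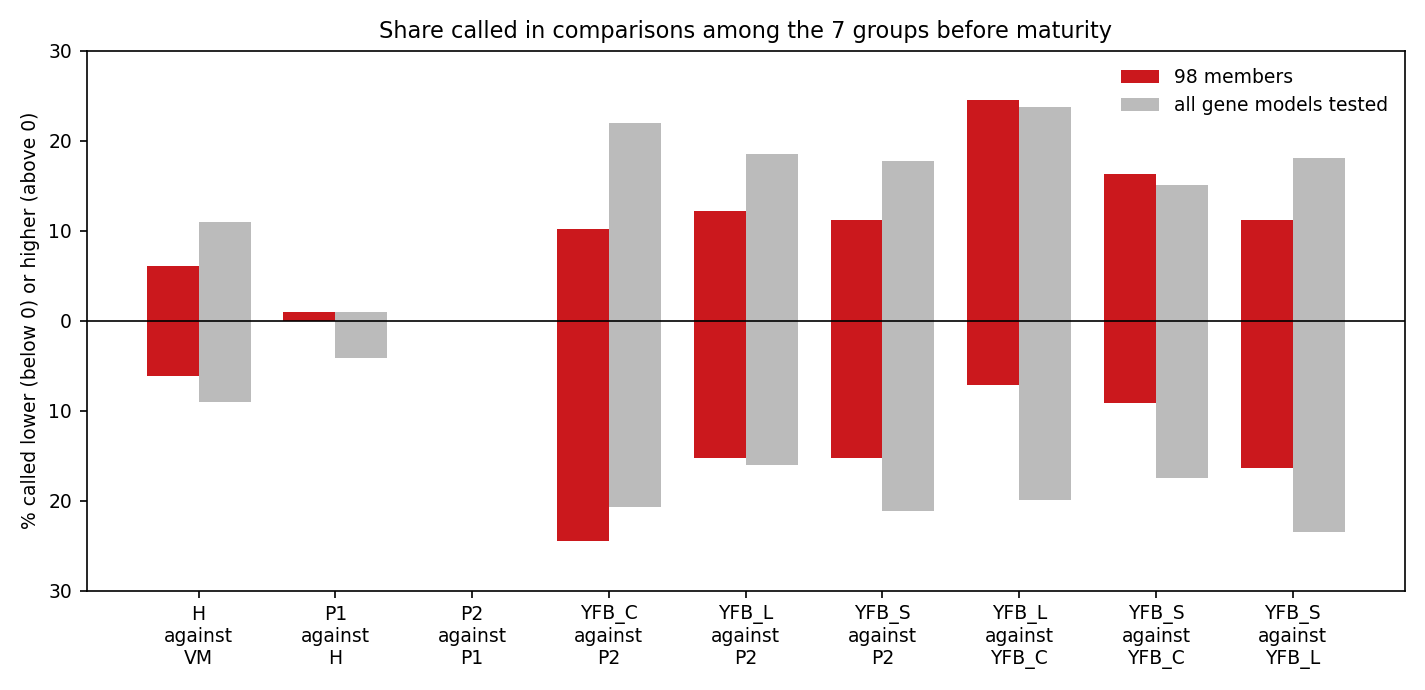
Share of gene models called higher (above 0) and lower (below 0) in each comparison among the earlier groups, for the 98 members (red) and all 11990 gene models tested (grey). The share called in either direction is smaller for the members in 8 comparisons, for example 12.2% against 19.9% for H against VM, and 0 for both in P2 against P1. Without the low library of each young tissue it is larger for YFB_L against P2. Those libraries were left out because members were low in them, so nothing is read from that. The floor that the rule sets on every earlier group bears on these differences in share.

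Between lamellae and cap of the young fruiting body 24 members were higher in lamellae (23.7% of all gene models were) and 7 lower (19.9% of all were). The median change was 0.49 for members and 0.08 for all gene models, and 31.6% of members were called in either direction, beside 43.6% of all gene models. Without YFB_C replicate 3 the counts were 20 and 11, and without YFB_L replicate 1 they were 34 and 7. With library size alone they were 46 and 4 (median shift 0.72). Gene model 467969 had the largest rise in lamellae over the cap, at 294, 450.0 and 435 RPKM in YFB_L against 35.1, 15.2 and 35.7 RPKM in YFB_C (log2 change 3.78 ± 0.48 SE; edgeR adjusted p = 8.58e-07). The largest fall was that of 445326, at 12.6, 9.33 and 10.2 RPKM in YFB_L against 309.7, 380.1 and 79.7 RPKM in YFB_C (log2 change -4.58 ± 0.57 SE; edgeR adjusted p = 5.56e-07). Both were low in mature cap with lamellae, at 1.38, 3.20 and 2.80 RPKM for 467969 and 1.19, 2.44 and 1.40 RPKM for 445326. The rule fixed these mature levels, which are given only to show their size.

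Between young stipe and young cap 25 members (25.5%) were called, beside 32.6% of all gene models, with 16 higher in the stipe (15.1% of all gene models were) and 9 lower (17.5% of all were). The share of members higher, 16.3%, was close to that of all gene models. In other settings the member counts moved, and they stand here without the share of all gene models. Without YFB_C replicate 3 they were 8 higher and 15 lower. Without YFB_S replicate 1 they were 9 and 10, and without YFB_S replicate 2 they were 18 and 7. They were 13 and 13 without the low library of each young tissue, and 21 and 6 with library size alone (median shift 0.44). Gene model 456317 had the largest rise in the stipe over the cap, at 187, 47.5 and 354 RPKM in YFB_S against 14.0, 12.2 and 4.75 RPKM in YFB_C (log2 change 4.25 ± 0.68 SE; edgeR adjusted p = 2.81e-05). Leaving out YFB_S replicate 3 moved this to 3.51. On the cap side 178549 was at 33.9, 2.13 and 105 RPKM in YFB_S against 1319.9, 1961 and 675 RPKM in YFB_C (log2 change -4.81 ± 1.07 SE; edgeR adjusted p = 0.000974), a change of -6.19 when YFB_S replicate 3 is left out.

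Stipe and lamellae differed in 27 members (27.6%), beside 41.6% of all gene models, with 11 higher in the stipe (18.1% of all gene models were) and 16 lower (23.4% of all were). With library size alone 7 were higher and 23 lower (median shift -0.28), without YFB_L replicate 1 the counts were 8 and 23, and without YFB_S replicate 2 they were 11 and 14. Gene model 439448 was at 304, 604 and 449.7 RPKM in YFB_S against 13.3, 14.4 and 14.4 RPKM in YFB_L (log2 change 5.02 ± 0.48 SE; edgeR adjusted p = 2.18e-08). In the mature stipe it was at 0.959, 0.804 and 1.18 RPKM. Gene model 467969, the lamellae-biased member above, was at 26.3, 10.7 and 13.2 RPKM in YFB_S (log2 change -4.55 ± 0.50 SE against YFB_L; edgeR adjusted p = 1.76e-07).

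Replicates differed most in the members in the young cap and young lamellae. The median SD of log2(RPKM + 1) between the libraries of a group was 0.28 in FB_CL and 0.22 in FB_S over the members, 0.27 in VM, 0.43 in H, 0.31 in P1, 0.34 in P2, 0.83 in YFB_C, 0.65 in YFB_L and 0.43 in YFB_S. The added pseudocount lowers the SD at the small mature levels. Over the whole table it was 0.25 in FB_CL and 0.22 in FB_S, and from 0.23 in VM to 0.39 in YFB_L in the earlier groups. In each young tissue 1 library carried most of the low values. YFB_C replicate 3 was the lowest of its group in 87 of 98 members (88.8%, against 45.3% of the table), YFB_L replicate 1 in 73 (74.5%, against 44.3%) and YFB_S replicate 2 in 86 (87.8%, against 39.6%). With 3 libraries a group median does not depend on how far below it the lowest library lies, so the rule did not use that depth.

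In each of these libraries the median member lay between mature tissue and the other libraries of its group, but single members did not always. The rule set both ends of this span, through low mature medians and higher young group medians. Their order is therefore only a description. The median member was at 1.95, 2.28 and 1.70 RPKM in the FB_CL libraries, at 8.99 RPKM in YFB_C replicate 3, and at 25.8 and 22.7 RPKM in the other young caps. YFB_L replicate 1 was at 14.9 RPKM, the other lamellae at 31.9 and 35.1 RPKM. The FB_S libraries were at 2.47, 2.14 and 2.29 RPKM, YFB_S replicate 2 at 17.6 RPKM, and the other young stipes at 31.2 and 26.1 RPKM. A distance of 1.5 from the higher mature median was kept by 42 members in YFB_C replicate 3, by 81 in YFB_L replicate 1 and by 72 in YFB_S replicate 2. The other libraries of these groups mostly pass by the choice of members, which asked this of the group median, so they are no comparison. What set these libraries apart was not tested. Without all 3, chosen after the data were seen, the rule gave 101 gene models, 94 of the 98 among them.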

How the data were processed

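The deposited files hold total and unique read counts of 14242 gene models for each of 29 libraries and the length of each model, per the file headers. How the reads were mapped was not given in the sources used here. The kit named in the labels' protocols does not mark strand, so reads of genes that overlap on opposite strands cannot be told apart. A further table by the authors holds log2 RPKM of 12003 gene models, for which the submitters' processing notes list limma 3.18.13, edgeR 3.4.2 and R 3.0.2. By its values it includes a small prior count, since gene models with 0 reads in a library are listed above 0 RPKM.

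Members were selected and levels given from the log2 RPKM table. Tests used the total counts with edgeR 4.0.16 in R 4.3.3: filterByExpr kept 11990 gene models, TMM set the scaling, and the quasi-likelihood model had 1 coefficient for each group and took in all 29 libraries. P-values were adjusted over all gene models kept. The SE is the log2 change divided by the square root of its F. The test was checked on simulated counts. DESeq2 1.42.0, limma 3.58.1, other scalings and filters, and leaving out libraries were alternatives. Named gene models were the largest rise and fall among called members, without overlap and with a mean of at least 10 RPKM in the higher group, and the extremes of the rule and of the F test. The members, comparisons and lists were chosen with earlier results of these data known. The SD and SE given are between libraries.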

Additional observations from a re-analysis of the deposited data

Results flagged for a closer look

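Of 42 sets of 4 primordium libraries examined for a single library far from the rest, 1 stood out. By chance about 1 set in 20 would, so 1 of 42 is no more than chance gives. Gene model 380252 was at 98.6 RPKM in P2 replicate 2, against 164 to 173 RPKM in the other P2 libraries.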

How the results depend on the processing

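The number of members was 98 by the rule as given, 164 with a pseudocount of 0.1 RPKM, 252 at a distance of 1, 36 at a distance of 2 and 411 with library size alone. It was 67 to 105 without any 1 library, lowest without YFB_C replicate 1 or 2. At 4-fold (share of all gene models at 4-fold in parentheses) 7 members were called for H against VM (8.81%), 0 for P1 against H (2.49%), 8 for YFB_C (18.4%), 18 for YFB_L (17.3%) and 10 for YFB_S (15.7%) against P2, 14 for YFB_L against YFB_C (23.0%), 6 for YFB_S against YFB_C (14.3%) and 14 for YFB_S against YFB_L (20.3%). At 2-fold 69 members (70.4%) differed among the earlier groups, against 85.3% of all gene models. With library size alone 61 were called for YFB_C against P2, 50 for YFB_L against YFB_C and 0 for P1 against H. P1 against H also gave 0 with limma on log2(RPKM + 0.1) and with the flow cell as a covariate, and 3 without the low library of each young tissue. H against VM gave 20 both without YFB_C replicate 3 and YFB_L replicate 1 and without those and YFB_S replicate 2. Leaving out 1 library of the groups compared gave 9 to 14 calls for H against VM, 0 to 2 for P1 against H, 0 for P2 against P1, 31 to 42 for YFB_C, 23 to 37 for YFB_L and 20 to 25 for YFB_S against P2. It gave 24 to 41 for YFB_L against YFB_C, 19 to 26 for YFB_S against YFB_C, 25 to 31 for YFB_S against YFB_L, and 37 to 43 among all earlier groups. The cause of these changes was not tested. Among the alternative values of named changes 266 kept direction and call, 0 reversed and 11 lost their call, all of 500002. Library size alone moved 370582 in the cap to 1.86, 445419 to -4.40 and 467969 against the cap to 4.51, and limma moved 178549 to between -5.62 and -5.92. Replicate numbers are shared between groups, but the samples cannot be taken as pairs: correlations of same-numbered deviations ran from -0.47 to 0.47, and in 0 comparisons did every library correlate best with its own number. With the replicate number as a block P1 against H had 0 called members (500002 at an edgeR adjusted p of 0.0806), H against VM 10 and YFB_C against P2 34. Depth limits the mature levels of the 39 members with fewer than 10 reads in a mature library.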

Other observations

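The levels of members were correlated with each other across the 23 earlier libraries. This is a description, without a test, over libraries that share groups and scaling. The median Pearson correlation of log2(RPKM + 1) over the 4753 pairs of members was 0.275, against -0.00 over all pairs of the table, and 3.26% of member pairs exceeded 0.8, against 1.21%. Linking members at a correlation above 0.8 joined 63 of the 98 into one set and left 24 unlinked. Without YFB_C replicate 3, YFB_L replicate 1 and YFB_S replicate 2, which leaves 20 libraries, the median was 0.165, the share over 0.8 was 2.55%, the largest set held 52 members and 33 were unlinked.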
